A study of Mus musculus with 6 samples.

Results

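The proteasome genes of mouse skin were examined as 45 gene symbols of 18617 named genes, taken from the platform annotation by name: symbols that begin with Psma, Psmb, Psmc, Psmd, Psme or Psmf and a digit, together with Psmg1 and Psmg2. The inducible subunit genes Psmb8, Psmb9 and Psmb10 were kept out of this set. The 45 symbols were measured by 49 probes, with 1 probe for 41 genes and 2 probes for 4 genes. The letters of the rule also take Psmc3ip, which encodes a meiotic recombination factor, and Psme3ip1, which encodes a protein that binds the activator Psme3. Neither encodes a proteasome subunit, and both are described apart.

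Skin of 3 LynDN transgenic mice was compared with skin of 3 WT mice on 2-colour arrays, where Lyn is a Src family tyrosine kinase. In the title of the series the allele is spelled LynDeltaN. The sources used here do not give strain, age, sex, skin site or the promoter that drives the transgene. Each LynDN mouse was paired with 1 WT mouse, and each pair was hybridised on 2 arrays, once with the LynDN sample in Cy5 and once in Cy3, so that 6 arrays gave 3 mouse pairs. LynDN mouse 1 was set against WT mouse 1 (pair 1), LynDN mouse 2 against WT mouse 3 (pair 2) and LynDN mouse 3 against WT mouse 2 (pair 3). The date label of 1 array differs from that of the others, and this array was not treated as a batch. In its pair, dye orientation cannot be told apart from that date.

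The proteasome degrades proteins that carry ubiquitin. Its core particle stacks outer rings of alpha subunits, encoded by Psma genes, on inner rings of beta subunits, encoded by Psmb genes, and the beta subunits of Psmb5, Psmb6 and Psmb7 cut the protein chain. The regulatory particle holds a ring of ATPases (Psmc genes), which unfold substrates, and non-ATPase subunits (Psmd genes), which bind and remove ubiquitin. In cells exposed to interferon-gamma and in many leukocytes, these cutting subunits are exchanged for Psmb8, Psmb9 and Psmb10, and the PA28 activator of Psme1 and Psme2 is made in larger amounts.

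The deposited values were log ratios between the channels of each array, and log2 is assumed here because the base is not stated. The numerator is not stated either, so positive and negative mark opposite sides and do not say which genotype was higher. The alarmin gene S100a8 lay at 4.90, 5.32 and 5.09 with LynDN in Cy5, and at 4.04, 4.04 and 4.28 with LynDN in Cy3. A strongly differing gene thus kept 1 sign when the dyes were exchanged. Values carry fewer digits from row 21000 of the deposited table on, where 5 proteasome genes have a probe. Over all probes the 2 arrays of a pair correlated with Pearson r of -0.02, 0.44 and 0.45 in pairs 1, 2 and 3 before that row, and with 0.11, 0.47 and 0.38 from it on. Whether the stretches share a numerator was not tested. Pair 1 stood apart: the Y-linked gene Eif2s3y had a pair mean of 3.50 there, against -0.00 in pair 2 and 0.03 in pair 3. Kdm5d, also Y-linked, had 1.24, -0.05 and 0.13. In pair 1 genotype thus cannot be told apart from a difference in sex between its 2 mice, which the labels do not give. Ratios carry no expression level, so the skin label could not be checked against marker levels, and a difference in cell makeup cannot be told apart from one in RNA per cell.

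The comparison of genotypes asked whether proteasome genes differ between LynDN and WT skin, and none of the 45 passed the test. Each ratio was averaged over the 2 arrays of a pair, and the mean of 3 pairs was tested against 0 with limma, with Benjamini-Hochberg adjustment over all 22879 rows and a threshold of 0.05. The smallest adjusted p of a proteasome gene was 0.282, for Psmb4, against 4 called rows in the whole table (0.0175% of rows). At an unadjusted p under 0.05, 0 proteasome genes were positive and 4 (Psma1, Psma3, Psmb4 and Psmb6) negative, or 8.89% of the 45, where 12.3% of all rows reached that level, 5.92% positive and 6.41% negative. With the 6 arrays kept apart and the mouse pair as a random replicate block, 0 proteasome genes passed again (smallest adjusted p = 0.123, Psmb4), against 243 rows, or 1.06%, of the table. In the block fit 5 proteasome genes, or 11.1%, reached an unadjusted p under 0.05, all negative, against 14.5% of all rows (6.95% positive and 7.55% negative).

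The ratios were small as well as uncalled. Means ran from -0.29 for Psmb6 to 0.14 for Psmc3, so that the largest corresponds to 1.22-fold, and 7.33% of all named genes had a larger mean in size. For 45 of 45 genes the 95% interval of the mean from limma, not adjusted for the number of genes, lay within 1.5-fold on either side, and for 42 it lay within 1.3-fold. The 3 exceptions to the narrower limit were Psmb6, Psmb4 and Psma3. Such intervals were common: of all 18617 named genes 17351 lay within 1.5-fold and 15512 within 1.3-fold. The median size of the mean was 0.08 in the set and 0.07 over all named genes. Of the 45 means 29 were negative and 16 positive, that is 64.4% negative, against 55.8% among all named genes. The median was -0.04, and it was -0.03, -0.06 and -0.05 in pairs 1, 2 and 3, beside -0.01 over all named genes. Leaving out Psmc3ip and Psme3ip1 left the median at -0.04 over 43 genes.

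**Figure D1:**
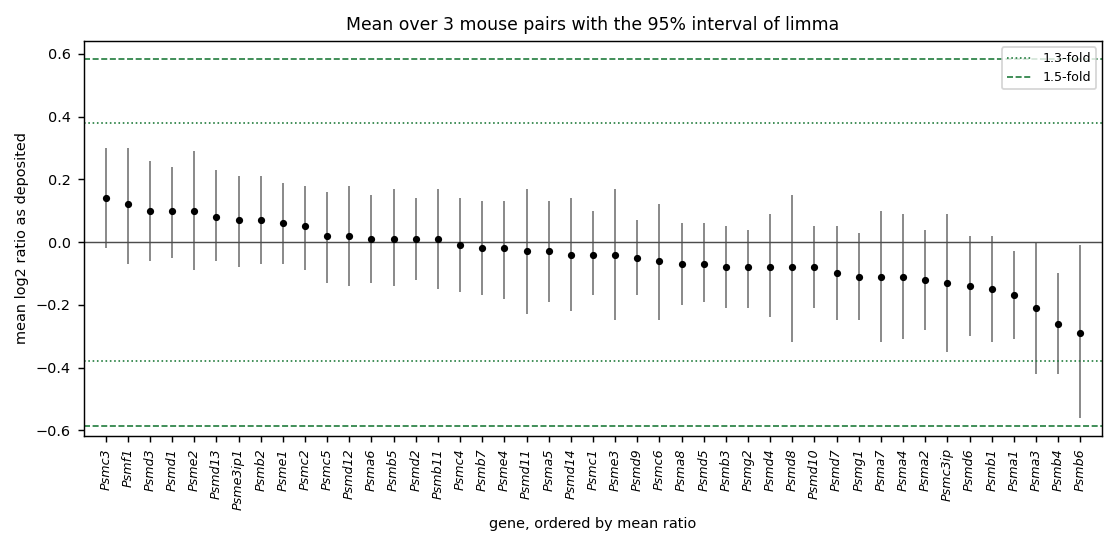
Mean log2 ratio of each of the 45 proteasome genes over 3 mouse pairs, ordered from positive to negative, with the 95% interval from limma as bars. Dotted and dashed lines mark 1.3-fold and 1.5-fold. The means run from 0.14 for Psmc3 to -0.29 for Psmb6, and every interval ends inside 1.5-fold.

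Of the 8 alpha ring genes 7 had a negative mean, with a median of -0.11. Psma3, an outer ring subunit, had -0.22, -0.53 and -0.47 with LynDN in Cy5, and 0.17, -0.24 and 0.03 with LynDN in Cy3. The Cy3 arrays lay on both sides of 0 and the Cy5 arrays below it, and the mean over pairs was -0.21 ± 0.18 (SD, n = 3; limma adjusted p = 0.400). Psma1 had -0.08, -0.34 and -0.36 with LynDN in Cy5, and -0.12, -0.01 and -0.10 with LynDN in Cy3. It was negative on 6 of 6 arrays, with a mean of -0.17 ± 0.07 (SD, n = 3; limma adjusted p = 0.349). Psma1 and Psmd10 were the 2 of the 45 genes with 1 sign on all arrays, or 4.44%, against 8.03% of all rows. The 2 probes of Psma1 differed. The first had a mean of -0.30, with arrays from -0.70 to -0.14. The second had a mean of -0.03, with arrays from -0.24 to 0.16, so the single sign holds for the average of the probes. Psma6 had the highest alpha ring mean, 0.01 ± 0.06 (SD, n = 3), and Psma8, the spermatogenesis-specific alternative to Psma7, had -0.07 ± 0.04.

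Psmb4, a beta subunit with no cutting activity that takes part in ring assembly, had the smallest p of the set. Its ratios were -0.29, -0.60 and -0.36 with LynDN in Cy5, and 0.00, -0.05 and -0.28 with LynDN in Cy3. No array lay clearly above 0, and the mean was -0.26 ± 0.11 (SD, n = 3; 95% interval -0.42 to -0.10; limma adjusted p = 0.282). Without pair 1 it had a mean of -0.32, without pair 2 -0.23 and without pair 3 -0.24 (limma adjusted p = 0.0597, 0.819 and 0.904). Psmb6, which carries the caspase-like site, had 0.11, -0.74 and -0.39 with LynDN in Cy5, and -0.16, -0.33 and -0.21 with LynDN in Cy3. Pair 1 was the one near 0 (pair mean -0.02, against -0.54 and -0.30 in pairs 2 and 3), and the mean was -0.29 ± 0.26 (SD, n = 3; limma adjusted p = 0.391). Psmb1, another beta subunit without an active site, averaged -0.15 ± 0.12 over probes of mean -0.07 and -0.23, and Psmb2 was highest in the beta ring, at 0.07 ± 0.07 (SD, n = 3). Psmb11, which replaces Psmb5 in thymic epithelium, had 0.01 ± 0.11. It lies beside Psmb5 on chromosome 14 in GRCm38.p6, at chr14:54625310-54629556 against chr14:54614120-54617995.

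Of the other cutting subunits, Psmb5 and Psmb7 had means near 0. Psmb5, which carries the chymotrypsin-like site, had -0.54, -0.16 and -0.19 with LynDN in Cy5, and 0.36, 0.37 and 0.25 with LynDN in Cy3. All Cy5 arrays lay below 0 and all Cy3 arrays above it, and the pair means of -0.09, 0.10 and 0.03 averaged 0.01 ± 0.10 (SD, n = 3; limma adjusted p = 0.941). Psmb7, which carries the trypsin-like site, had -0.14, -0.25 and -0.21 with LynDN in Cy5, and 0.30, 0.07 and 0.12 with LynDN in Cy3. It was split by dye in the same sense, with a mean of -0.02 ± 0.09 (SD, n = 3; limma adjusted p = 0.931).

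Their inducible counterparts were negative in pair 1 and positive in pairs 2 and 3. Psmb8, which takes the place of Psmb5, had -0.30, 0.48 and 0.30 with LynDN in Cy5, and -0.15, 0.45 and 0.68 with LynDN in Cy3. Both arrays of pair 1 were negative and the other 4 positive, with a mean of 0.24 ± 0.41 (SD, n = 3; limma adjusted p = 0.579). Without pair 1 the mean of Psmb8 was 0.48 and passed in limma (adjusted p = 0.0229), where 4.88% of all rows passed. Without pair 2 it was 0.13 and without pair 3 it was 0.12 (limma adjusted p = 0.914 and 0.958). Psmb9, the counterpart of Psmb6, had pair means of -0.31, 0.13 and 0.38, and Psmb10, the counterpart of Psmb7, had -0.08, 0.25 and 0.25. Their means were 0.07 ± 0.35 and 0.14 ± 0.19 (SD, n = 3; limma adjusted p = 0.872 and 0.556). Without pair 1 Psmb9 and Psmb10 had means of 0.26 and 0.25, and neither passed in limma (adjusted p = 0.192 and 0.115). The constitutive and inducible genes were not tested against each other. By list median the leukocyte markers, like the inducible genes, were lowest in pair 1, with -0.06, 0.67 and 1.03 in pairs 1, 2 and 3. All 5 on the list had a positive mean, from 0.01 to 0.80. T cell markers (3 of 4 listed) were instead lowest in pair 2, with medians of -0.26, -0.30 and 0.06. Interferon response genes (10 of 12 listed) had medians of -0.19, 0.10 and 0.35 in the same pairs. The part of these lists in the ratios of Psmb8, Psmb9 and Psmb10 was not tested.

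**Figure D2:**
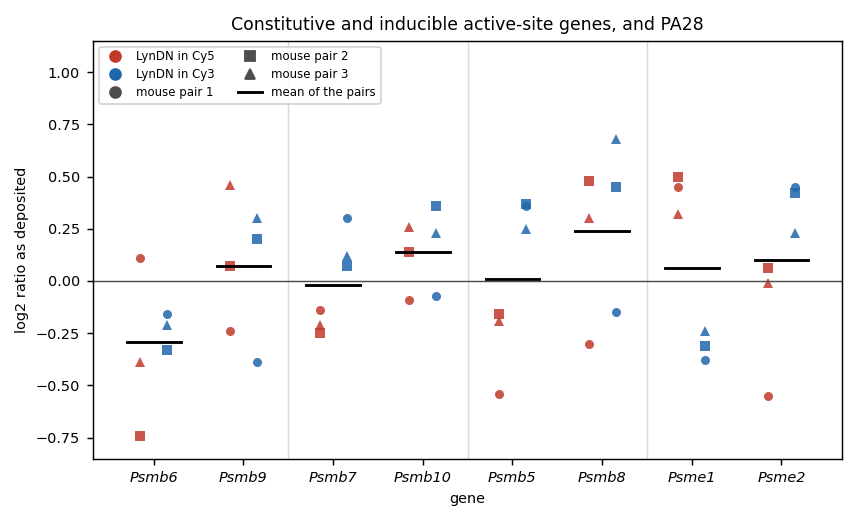
Log2 ratio on each array for the 3 constitutive active-site genes, each beside its inducible counterpart, and for the PA28 genes Psme1 and Psme2. Red marks arrays with LynDN in Cy5 and blue those with LynDN in Cy3, symbols mark the mouse pair and bars the mean. Psmb5, Psmb7, Psme1 and Psme2 separate by colour, whereas for Psmb8, Psmb9 and Psmb10 the arrays of pair 1 are the low ones.

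The regulatory particle genes lay close to 0. Of 6 base ATPases 3 had a positive and 3 a negative mean, with extremes of 0.14 ± 0.10 for Psmc3 and -0.06 ± 0.14 for Psmc6 (SD, n = 3). Psmc3 had -0.22, 0.10 and -0.16 with LynDN in Cy5, and 0.59, 0.32 and 0.22 with LynDN in Cy3. Every Cy5 array lay below every Cy3 array, and the adjusted p of the mean in limma was 0.442. Of 11 non-ATPase subunits 5 were positive and 6 negative. The highest were Psmd3, with 0.10 ± 0.11, and Psmd1, a large scaffold subunit, with 0.10 ± 0.07, and the lowest was Psmd6 with -0.14 ± 0.11 (SD, n = 3). Psmd4, a ubiquitin receptor, had -0.08 ± 0.11, and Psmd14, the subunit that cuts ubiquitin from the substrate, had -0.04 ± 0.14. The 2 probes of Psmd11 had means of opposite sign, 0.02 and -0.07, and neither passed in limma (adjusted p = 0.928 and 0.811). The same 2 probes gave orientation differences of opposite sign too, -0.09 and 0.06.

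All 5 assembly factor genes had a negative mean, between -0.11 for Psmg1 and -0.05 for Psmd9, and 0 passed in limma (smallest adjusted p = 0.494). Psmg1 and Psmg2 encode a chaperone pair of the alpha ring, and Psmd5, Psmd9 and Psmd10 encode chaperones of the ATPase ring. Their spread between pairs was narrow for Psmd5 (-0.07 ± 0.02), Psmd9 (-0.05 ± 0.01) and Psmg2 (-0.08 ± 0.02; SD, n = 3), but this SD leaves out the gap between the 2 arrays of a pair. Psmd9 showed how large that gap was, with -0.25, -0.17 and -0.21 with LynDN in Cy5, and 0.13, 0.08 and 0.11 with LynDN in Cy3. Psmd10, an X-linked gene, had -0.08, -0.02 and -0.19 with LynDN in Cy5, and -0.03, -0.11 and -0.05 with LynDN in Cy3. Its arrays overlapped between orientations, and its mean was -0.08 ± 0.03 (SD, n = 3; limma adjusted p = 0.562).

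Psme1 and Psme2 encode the alpha and beta chains of PA28, and lie 1 beside the other at chr14:55578494-55581527 and chr14:55587440-55591101. Psme1 had 0.45, 0.50 and 0.32 with LynDN in Cy5, and -0.38, -0.31 and -0.24 with LynDN in Cy3. Psme2 had -0.55, 0.06 and -0.01 with LynDN in Cy5, and 0.45, 0.42 and 0.23 with LynDN in Cy3. The partners thus differed by dye in opposite senses, while their means over pairs were 0.06 ± 0.03 for Psme1 and 0.10 ± 0.15 for Psme2 (SD, n = 3; limma adjusted p = 0.674 and 0.612). The mouse genome also holds Psme2b, a close copy of Psme2 on chromosome 11, and a probe for Psme2 may bind its transcript too. The nuclear activator Psme3 had -0.04 ± 0.18, Psme4, which encodes the activator PA200, had -0.02 ± 0.09, and Psmf1, the inhibitor PI31, had 0.12 ± 0.14 (SD, n = 3; limma adjusted p from 0.556 to 0.904). Outside the proteasome proper, Psmc3ip had -0.13 ± 0.19 and Psme3ip1 had 0.07 ± 0.07.

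**Figure D3:**
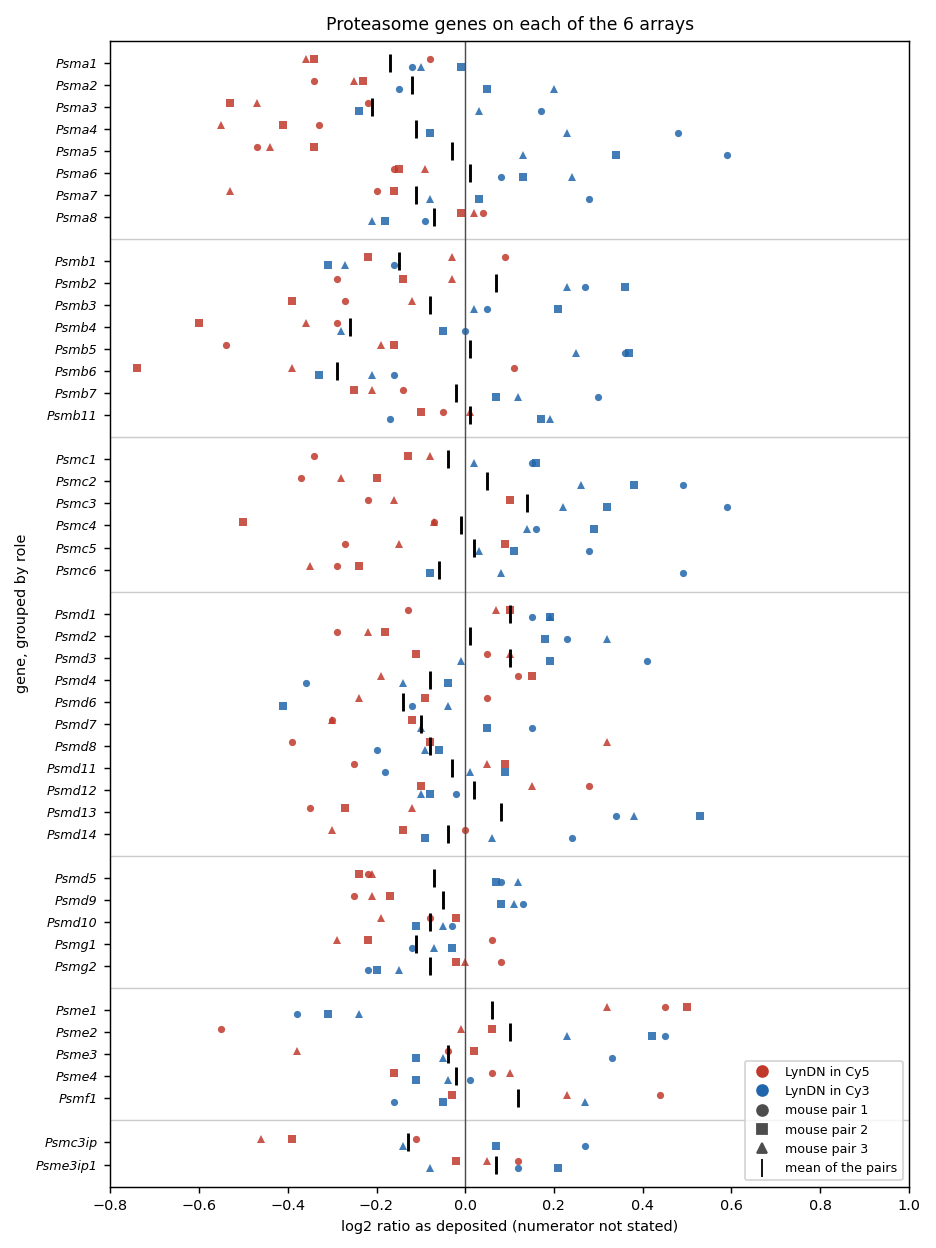
Log2 ratio of each of the 45 proteasome genes on each of the 6 arrays, grouped by role. Red points are arrays with LynDN in Cy5 and blue points those with LynDN in Cy3, symbols mark the mouse pair, and the black tick is the mean of 3 pairs. For many core and ATPase genes red points lie left of blue ones, while the mean stays near 0.

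The proteasome ratios were arranged by dye orientation, and each pair mean holds both orientations once. The difference of the ratio with LynDN in Cy5 minus that with LynDN in Cy3 was negative for 35 of 45 genes, with a median of -0.27, against 51.8% negative and a median of -0.01 over all named genes. In 22 genes, or 48.9%, every Cy5 array lay below every Cy3 array, where 13.5% of all rows did. In 3 genes, Psme1, Psma8 and Psmg2, every Cy5 array lay above every Cy3 array, which is 6.67% of the 45 against 13.1% of all rows. In 13 genes, or 28.9%, all Cy5 arrays were negative and all Cy3 arrays positive, against 5.99% of all rows, and Psme1 alone (2.22%) had the opposite split, against 5.39%. Members of 1 complex vary together and are not independent, so these shares describe the set and were not tested. The negative lean was not limited to the 45 genes. Of 9 MHC class I peptide loading genes 6 had a negative difference, with a median of -0.28 over the list. Among 12 shuttle and unfoldase genes 10 did, with a median of -0.12. Leukocyte markers lay on the other side, with 0 of 5 negative and a median of 0.21.

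The orientation difference of single genes was tested with limma over the 3 pairs, and 0 of 45 genes passed after adjustment, against 131 rows or 0.573% of the table. At an unadjusted p under 0.05, 24 of the 45, or 53.3%, were reached, 23 negative and 1 positive, where 21.4% of all rows were, 11.2% negative and 10.1% positive. The smallest adjusted p was 0.0525, for Psme1, with a difference of 0.73 (95% interval 0.48 to 0.99). On the other side Psmd13, a non-ATPase subunit, had a difference of -0.66 (adjusted p = 0.0564 in limma), the alpha subunit gene Psma5 had -0.77 (0.0602), the ATPase gene Psmc2 had -0.66 (0.0619) and Psmb5 had -0.62 (0.0770). With robust variance moderation 4 genes passed, Psme1, Psma5, Psmd13 and Psmc2 (limma adjusted p from 0.0306 to 0.0403), where 451 rows or 1.97% of the table passed. The sign of these differences was the same in each of the 3 pairs.

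Psma5 had -0.47, -0.34 and -0.44 with LynDN in Cy5, and 0.59, 0.34 and 0.13 with LynDN in Cy3. Psmc2 had -0.37, -0.20 and -0.28 with LynDN in Cy5, and 0.49, 0.38 and 0.26 with LynDN in Cy3. Psmd13 had -0.35, -0.27 and -0.12 with LynDN in Cy5, and 0.34, 0.53 and 0.38 with LynDN in Cy3. In each of these genes no array of one orientation reached the values of the other, yet the means over pairs were -0.03, 0.05 and 0.08. Arrays of a single orientation would have placed the set on opposite sides of 0: its median was -0.15 over arrays with LynDN in Cy5 and 0.07 over those with LynDN in Cy3. In limma on the 3 Cy5 arrays alone 1 positive and 18 negative proteasome genes had an unadjusted p under 0.05, where 7.38% of all rows were positive and 8.87% negative at that level. On the 3 Cy3 arrays alone 10 positive and 4 negative ones did, where 9.03% of all rows were positive and 10.1% negative. In neither did a proteasome gene pass adjustment.

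**Figure D4:**
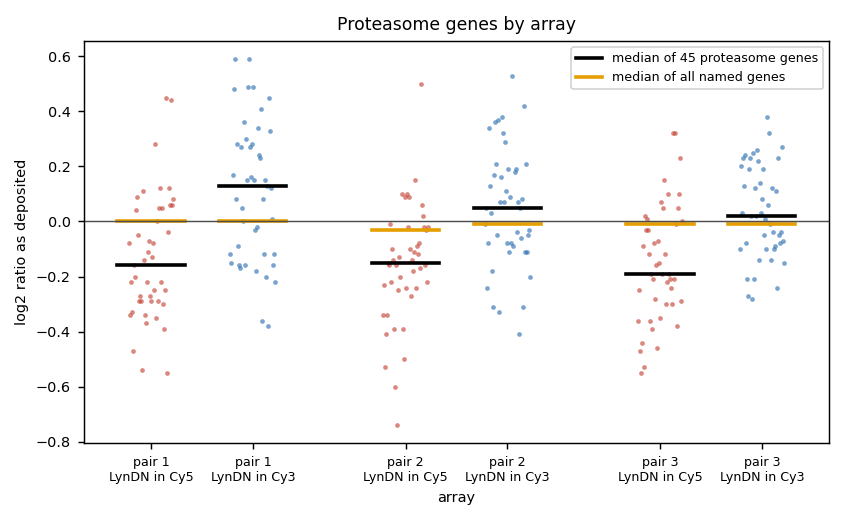
Log2 ratios of the 45 proteasome genes on each array, with 1 point per gene, black bars for their median and orange bars for the median of all named genes. In each mouse pair the array with LynDN in Cy5 has the lower median (-0.16, -0.15 and -0.19 in pairs 1, 2 and 3) and the array with LynDN in Cy3 the higher one (0.13, 0.05 and 0.02).

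The orientation differences are given here by role, and the roles were not tested against each other. All 6 base ATPases were negative, with a median of -0.43, from -0.66 for Psmc2 to -0.25 for Psmc5. The alpha ring had a median of -0.34, with 7 of 8 negative and Psma8 at 0.18, and the beta ring one of -0.33, with 7 of 8 negative and Psmb1 at 0.19. The 2 probes of Psmb1 had differences of 0.03 and 0.35, and neither passed in limma (adjusted p = 0.879 and 0.14). Non-ATPase subunits had a median of -0.16, with 7 of 11 negative, and assembly factors one of -0.07, with 4 of 5 negative. The activators and the inhibitor had 3 positive and 2 negative differences. Psmb8, Psmb9 and Psmb10 had orientation differences of -0.17, 0.06 and -0.07. Across the 45 genes the orientation differences of the pairs correlated with Pearson r of 0.66 (pairs 1 and 2), 0.71 (pairs 1 and 3) and 0.61 (pairs 2 and 3), whereas the pair means correlated with 0.10, 0.02 and 0.66. These correlations are across genes measured on the same arrays and serve as a description. They were not computed over all named genes, so whether they are particular to the proteasome genes was not tested.

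**Figure D5:**
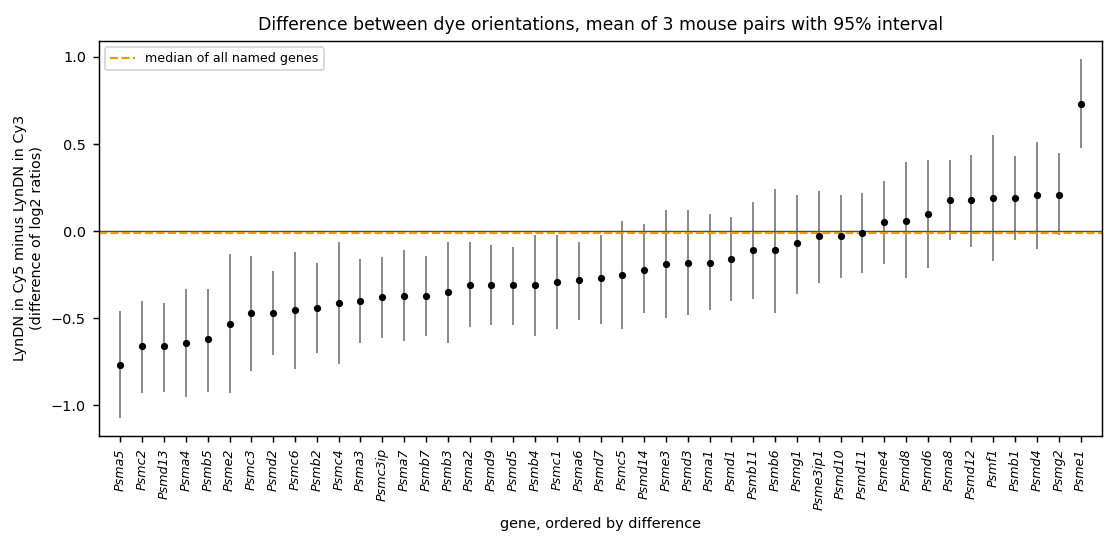
Difference between dye orientations (ratio with LynDN in Cy5 minus ratio with LynDN in Cy3) for each of the 45 proteasome genes, as the mean over 3 mouse pairs with the 95% interval from limma. The orange line is the median of all named genes. Differences run from -0.77 for Psma5 to 0.73 for Psme1, and 35 of 45 are negative.

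Other genes of the ubiquitin and proteasome system gave 0 calls on the pair means and 0 with the replicate block. Of 14 listed symbols of further proteasome factors 8 were measured, with a median of -0.03. The list holds both an old and a current symbol for Sem1 (Shfm1) and for Ecpas (AI314180). The chaperone gene Psmg3 had the smallest p there, at -0.17 ± 0.10 (SD, n = 3; limma adjusted p = 0.385), followed by Sem1, a small regulatory particle subunit, at -0.09 ± 0.09, and Pomp, a core assembly factor, had -0.04 ± 0.16. The orientation difference was negative in 7 of the 8, with a median of -0.24. Shuttle and unfoldase genes (12 of 14 listed symbols, where Ufd1 is also listed as Ufd1l) had a median of 0.00. Zfand5, a proteasome activator, had 0.20 ± 0.14 and the Vcp cofactor Nsfl1c 0.14 ± 0.04 (SD, n = 3; limma adjusted p = 0.383 for both). Of 6 ubiquitin and E1 genes only Uba6 was measured, at 0.01 ± 0.09.

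Among 9 measured regulators of proteasome transcription 8 had a positive mean, with a median of 0.10. Of all 18617 named genes 8235 had a positive mean. Nfya, counted as positive, had pair means of 0.00, 1.54 and -0.06, and its mean of 0.49 ± 0.91 (SD, n = 3) came from 1 array at 3.27. Stat3 had pair means of 0.14, 0.97 and 0.91 and a mean of 0.67 ± 0.46 (SD, n = 3; limma adjusted p = 0.303). Nfe2l2, which encodes NRF2, had 0.28 ± 0.23 (adjusted p = 0.377 in limma), and Nfe2l1, which encodes NRF1, the factor that restores proteasome genes after proteasome inhibition, had 0.10 ± 0.04. The SD of Nfe2l1 leaves out the gap between orientations. Its arrays had 0.62, 0.21 and 0.16 with LynDN in Cy5, and -0.33, -0.10 and 0.02 with LynDN in Cy3. In the MHC class I peptide loading list 8 of 9 genes had a positive mean, with a median of 0.09, led by H2-K1 at 0.35 ± 0.26 and H2-D1 at 0.38 ± 0.31 (SD, n = 3; limma adjusted p = 0.339 and 0.359), which encode class I heavy chains. The SD of H2-K1 leaves out such a gap too. Its arrays had -0.29, 0.23 and 0.10 with LynDN in Cy5, and 0.39, 0.75 and 0.91 with LynDN in Cy3. The interferon response list had a median of 0.08, with Cxcl9 at 0.20 ± 0.24 and Oas1a at 0.17 ± 0.32 as the genes of smallest p.

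Cell type markers were compared for the pairs in the same way, and 0 of 40 measured markers passed on the pair means, while 1, the basal keratinocyte keratin gene Krt14, passed with the replicate block (limma adjusted p = 0.0295). The medians were 0.33 for keratinocyte markers (Krt14 at 1.34, Krt10 at -1.77), -0.10 for fibroblast, 0.54 for leukocyte, 0.32 for macrophage and monocyte, -0.16 for T cell, -0.33 for skeletal muscle, -0.23 for adipocyte, -0.00 for endothelial, -0.32 for melanocyte and -0.07 for proliferation markers. Several of these medians exceed in size the -0.04 of the proteasome genes, and their part in the proteasome ratios was not tested.

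Promoter letters were searched because NRF1 and NRF2 are known to act through antioxidant response elements of proteasome promoters, and their own genes were measured above. Stretches are shown for 3 of the proteasome genes with the letters, chosen by name. RefSeq promoter windows of GRCm38.p6, from 250 bases before to 50 bases after the start, matched 37 of the 45 genes. The core letters TGACNNNGC, on either strand, occurred in 6 of the 37 genes, or 16.2%, against 14.0% of all genes with a window. The stretches below, each of 60 bases and 5′ to 3′ on the gene's strand, carry these letters in capitals at 38, 0 and 22 bases before the start for Psmb5, Psmb6 and Psmd9. The start is that of the promoter table, and for Psmb6 it lies inside the annotated gene span, which is chr11:70525324-70527858. They lie at chr14:54618009-54618068 on the minus strand, at chr11:70525297-70525356 on the plus strand and at chr5:123228130-123228189 on the plus strand.
Psmb5: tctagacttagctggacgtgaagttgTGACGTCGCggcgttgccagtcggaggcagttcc
Psmb6: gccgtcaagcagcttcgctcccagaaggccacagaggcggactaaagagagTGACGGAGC
Psmd9: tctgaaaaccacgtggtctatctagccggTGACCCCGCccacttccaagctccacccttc
The 3 genes share the core letters, and their genotype means were 0.01, -0.29 and -0.05. The letters also occurred in Psmc6, Psmd12 and Psme4, which are not shown and had means of -0.06, 0.02 and -0.02. The 6 genes with the letters had a median mean ratio of -0.04, and so did the 31 genes with a window and without them. The letters CCAAT occurred, on either strand, in 15 of the 37 genes, or 40.5%, against 41.1% of all genes.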

How the data were processed

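RNA from skin of 3 LynDN and 3 WT mice was hybridised on 6 two-colour arrays, 2 per mouse pair with the dyes exchanged. The authors deposited 1 log ratio per probe and array (25344 probes), taken here as log2. The sources used here do not give numerator, base or normalization, and intensities were not used, so no filter on dim probes was possible and the number of arrays limits the precision. The platform annotation gave 1 symbol for 21082 probes, several for 30 and none for 4232. Entrez identifiers of 20456 probes matched RefSeq, with 0 symbols changed.

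Probes of a gene were averaged per array, then the 2 arrays of a pair. The pairs come from the sample labels, which name the mice on each array, and the consensus correlation of arrays of a pair was 0.151. limma 3.58.1 (R 4.3.3) tested the 3 pair means against 0 and, separately, the 3 within-pair orientation differences, with Benjamini-Hochberg adjustment over 22879 rows. The scripts were tested on simulated data. Figures used matplotlib 3.10.9 and Python 3.11.15. Alternatives were the replicate block, quantile normalization, median centring, no or robust moderation, other probe summaries, single orientations and leaving out each pair. Those for the orientation difference were chosen after seeing the data.

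Members and lists were chosen with earlier results of these data known. Genes were named if called, of 1 sign on 6 arrays, highest or lowest in a role group, an active-site gene or its counterpart, an activator or inhibitor, of opposite probe signs, or among the 2 smallest p of a list. Psmd4, Psmd5, Psmd9, Psmd12, Psmd13, Psmd14, Psma5, Psma8, Psmb1, Psmb4, Psmb11, Psmc2, Psmc5, Psmg2, Pomp, Nfe2l1, Nfya, Krt10, S100a8, Eif2s3y and Kdm5d were named after their values were seen. Psmb3, Psmc1, Psmc4 and Psmd2 were named only because their arrays split by dye orientation. The labels do not say whether mice of a group were litter mates.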

Additional observations from a re-analysis of the deposited data

Results flagged for a closer look

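In 14 proteasome genes the 3 arrays with LynDN in Cy5 lay on one side of 0 and the 3 arrays with LynDN in Cy3 on the other. Of the 45 genes 28.9% were negative with Cy5 and positive with Cy3, against 5.99% of all rows, and 2.22% were split the opposite way, against 5.39%. The values are the mean difference of the log2 ratio, LynDN in Cy5 minus LynDN in Cy3, over 3 mouse pairs. It was -0.77 for Psma5 and -0.28 for Psma6 in the alpha ring. In the beta ring it was -0.44 for Psmb2, -0.35 for Psmb3, -0.62 for Psmb5 and -0.37 for Psmb7. The base ATPase genes Psmc1, Psmc2 and Psmc4 had -0.29, -0.66 and -0.41. The non-ATPase genes Psmd13 and Psmd2 had -0.66 and -0.47, and the assembly factor genes Psmd5 and Psmd9 had -0.31 each. Psme1 was the 1 gene split the other way, at 0.73. In limma 0 of the 14 differences passed after adjustment over all rows (smallest adjusted p = 0.0525, Psme1), and the cause of the split was not tested.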

How the results depend on the processing

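In the genotype comparison 0 proteasome genes passed in limma under any alternative run, the smallest adjusted p being 0.0597 (Psmb4, without pair 1). The count of called rows in the whole table, 4 on the pair means, was 243 with the replicate block, 72 after quantile normalization, 0 without variance moderation, 54 with only the Cy3 arrays of LynDN, 24 with only the Cy5 arrays, and 2 to 1117 when 1 pair was left out, the highest without pair 1. Proteasome genes at an unadjusted p under 0.05 numbered 0 positive and 4 negative on the pair means (5.92% and 6.41% of all rows), 0 and 5 with the replicate block (6.95% and 7.55% of all rows), 1 and 18 with only Cy5 arrays (7.38% and 8.87% of all rows), and 10 and 4 with only Cy3 arrays (9.03% and 10.1%). Leaving out 1 pair gave 0 to 1 positive and 0 to 8 negative ones, with 1 and 8 without pair 1 (8.83% and 10.8% of all rows), 0 and 0 without pair 2 (2.36% and 2.99%) and 0 and 1 without pair 3 (2.40% and 2.37%). Their median was -0.15 with only Cy5 arrays and 0.07 with only Cy3 arrays. For the orientation difference, called rows (131) became 6 after quantile normalization, 0 without moderation, 451 with robust moderation, 234 with every probe as a row, and 7 to 49 without 1 pair. Called proteasome genes (0) became 4 with robust moderation (1.97% of all rows) and 1, Psme1, with every probe as a row (0.923%). Those at an unadjusted p under 0.05 (24, against 21.4% of all rows) became 15 without moderation (14.2%) and 14 to 19 without 1 pair (14.6% to 17.8%). The replicate block changed no call of a proteasome gene. The cause of these shifts was not tested.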
